A study of Mus musculus with 7 samples.

Results

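The 57 protein-coding genes of the mouse clustered protocadherins were examined for binding of HDAC1, a histone deacetylase that acts in corepressor complexes, in the embryonic limb bud. They were taken from the 21853 protein-coding genes of the GENCODE M21 annotation by symbol, which gave 14 Pcdha, 22 Pcdhb and 21 Pcdhg genes, all on the plus strand of chromosome 18. The series holds 4 ChIP-seq samples made with an HDAC1 antibody and 3 inputs, each prepared from the pooled forelimb and hindlimb buds of 3 litters of wild-type Swiss Webster embryos at E11.5 (40 to 44 somites). All samples had the same stage and strain, with no treatment or mutant allele. They were summarised by the authors in 1 ranked list of 15347 peaks, without a value for any sample, so no difference between replicates could be computed and no p-value is given. A pooled tissue is a limit of such a list, since a site bound in a few cells and a site bound weakly in many cells cannot be told apart, and the tissue could not be checked against marker genes from peaks.

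Clustered protocadherins are cell-surface adhesion proteins of the cadherin superfamily, best known for giving single neurons different surface identities. In the Pcdha and Pcdhg clusters, each gene has its own promoter and a large variable exon that codes for the extracellular and transmembrane parts, and this exon is spliced to constant exons shared by the whole cluster. Pcdhb genes lack such constant exons. Most promoters of the clusters are chosen at random in single neurons, whereas the C-type genes at the downstream end of Pcdha and Pcdhg (Pcdhac1, Pcdhac2, Pcdhgc3, Pcdhgc4 and Pcdhgc5) are known for more constitutive expression.

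Few of the variable promoters held an HDAC1 peak, and those that did were all C-type. The promoter window reached from 2 kb before to 1 kb after the transcription start site (TSS) of each variable exon, and 1 bp of overlap with a peak was enough to count. Peaks were found in 3 of 57 windows (5.26%, 95% Wilson interval 1.81 to 14.4%), against 9183 of 21853 windows of all protein-coding genes (42.0%) and 240 of 511 on chromosome 18 (47.0%). The 3 genes were Pcdhac2, Pcdhgc3 and Pcdhgc4. Intervals are over promoters, which are related sequences in a tandem array and not replicates, and so they cover counting error only.

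By cluster, a peak was found in 1 of 14 Pcdha windows (7.14%, interval 1.27 to 31.5%) and in 2 of 21 Pcdhg windows (9.52%, interval 2.65 to 28.9%). None of the 22 Pcdhb windows held a peak (0%, interval 0 to 14.9%), and the limit set by 3 counts, used here for a count of 0, was 13.6%. The intervals of the 3 clusters overlapped, so the clusters could not be ordered by their share of promoters with a peak. When the same genes were split by type, a peak was found in 3 of 5 C-type windows (60.0%, interval 23.1 to 88.2%) and in 0 of 52 other windows (0%, interval 0 to 6.88%, limit by 3 counts 5.77%). The intervals of C-type and other members did not overlap, and the C-type interval included the 42.0% of all genes. This split was made after the positions of the peaks had been seen, and it is given as a description.

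**Figure D1:**
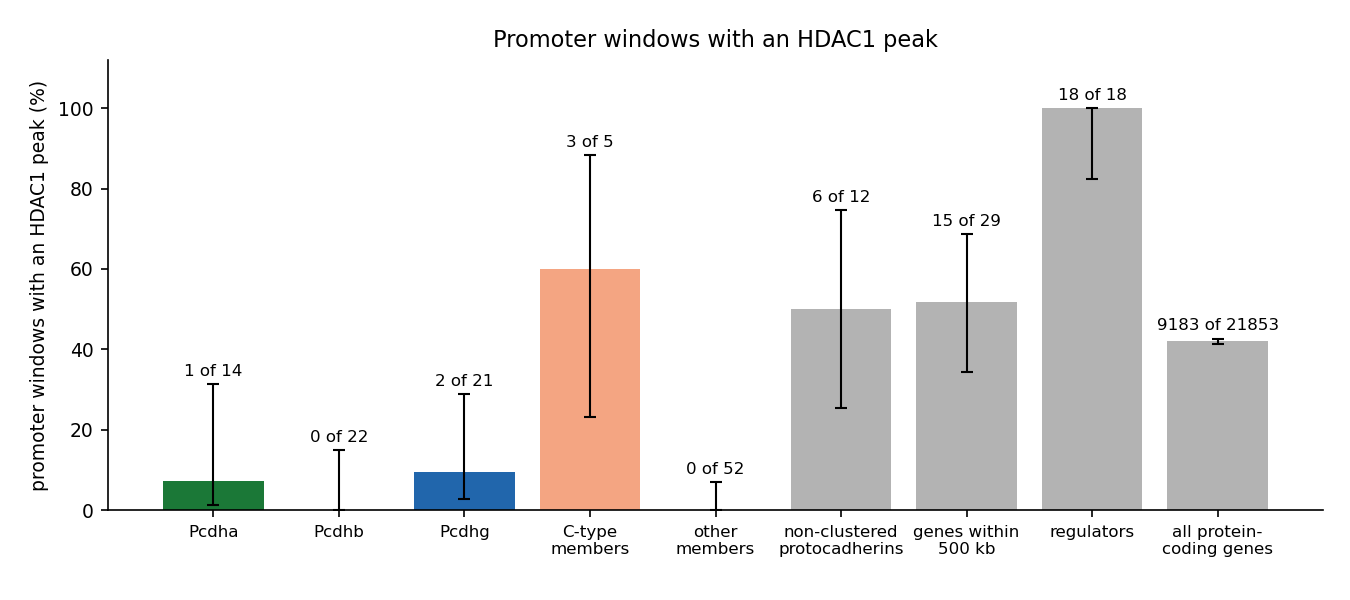
The bars give the share of promoter windows with an HDAC1 peak (%, y axis) for the 3 clusters, for C-type and other members, and for the comparison lists and all protein-coding genes (x axis), with 95% Wilson intervals as error bars and the counts above them. Pcdha, Pcdhb, Pcdhg and the non-C-type members lie below the 42.0% of all genes, and the C-type members, at 60.0%, have an interval that includes it.

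Across the 911.69 kb from the start of Pcdha1 to the end of Pcdhgc5 (mm10, chr18:36930184-37841873) the list held 7 peaks, or 0.768 per 100 kb. The 500 kb on each side held 10 peaks each, or 2.0 per 100 kb. Peaks covered 0.175% of the Pcdha span (257.478 kb, 2 peaks), none of the Pcdhb span (259.542 kb) and 1.89% of the Pcdhg span (180.081 kb, 5 peaks), compared with 0.92% and 1.08% of the upstream and downstream flanks. The peaks therefore lay in 2 groups, at the downstream end of Pcdha and at the downstream end of Pcdhg.

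**Figure D2:**
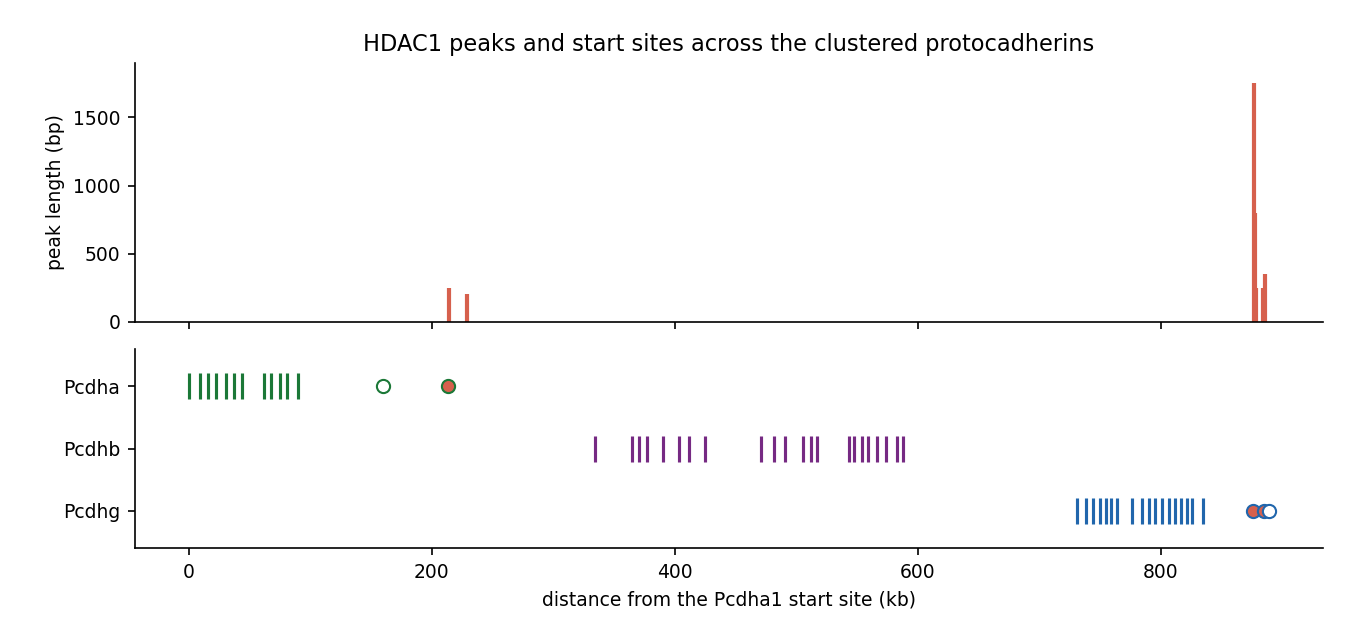
The upper panel shows the 7 HDAC1 peaks by position (kb from the Pcdha1 TSS, x axis) and length (bp, y axis), and the lower panel the TSS of the 57 members, with ticks for ordinary variable exons and circles for C-type genes (filled where the promoter window held a peak). The peaks stand at the right-hand ends of Pcdha and Pcdhg, where the C-type genes lie, and the Pcdhb row has none above it.

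In Pcdha, the promoter peak belonged to Pcdhac2, the last variable exon of the cluster. It was 250 bp long (chr18:37144050-37144299) and lay from 547 to 796 bp downstream of the TSS, wholly within the coding part of the variable exon. It stood at position 10573 of 15347 in the authors' ranking. The peak covered 250 of the 3028 bp of the exon and 8.33% of the promoter window. Upstream of this peak no other was found for 350.1 kb, a stretch that contains the TSS of all 14 Pcdha genes, that of Pcdhac2 included.

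The other peak of the Pcdha cluster was not at a promoter. It was 200 bp long (chr18:37158950-37159149), ranked 11572, and lay in an intron between constant exons, 116 bp before the next exon. The first constant exon began upstream of it, 11856 bp after the end of the Pcdhac2 promoter peak. Because all 14 Pcdha genes are spliced to these exons, this peak was inside the body of every one of them. Pcdhac1, the C-type gene before Pcdhac2, had no promoter peak, and its nearest peak was 54037 bp from its TSS. Pcdha1, the first gene of the cluster, was 136336 bp from its nearest peak, which lay upstream of the cluster.

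In Pcdhg, the most extensive binding of the whole region was at Pcdhgc3. Its first peak was 1750 bp long (chr18:37805950-37807699) and ranked 2970, the best position of the 7 peaks. It ran from position -460 to 1289 relative to the TSS in bp, covering the TSS itself, with 73.7% of its length in the variable exon, including UTR and coding sequence. It covered 1461 of the 3001 bp of the promoter window, or 48.7%.

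This peak was followed within the same exon by a peak of 800 bp ranked 4889 (1440 to 2239 bp from the TSS) and by a peak of 250 bp ranked 14597 (2290 to 2539 bp), both wholly in coding sequence. With the first, they covered 2340 of the 2568 bp of the Pcdhgc3 variable exon. The 800 bp peak also covered the annotated start of BC037039, an antisense transcript that begins 1512 bp inside Pcdhgc3 and runs back over its TSS. ChIP-seq has no strand, so binding at the 2 genes cannot be told apart.

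Pcdhgc4 had 2 short, low-ranked peaks. That in its promoter window was 250 bp long (chr18:37814750-37814999), ranked 14358, and lay at positions -329 to -80 bp relative to the TSS, outside any exon. The other was 350 bp long, ranked 14880, and lay in the coding part of the variable exon from 1371 to 1720 bp downstream of the TSS. Pcdhgc5, the last gene of the cluster, had no peak in its promoter window or in its gene body. Its nearest peak, the one within Pcdhgc4, ended 2714 bp upstream of its TSS.

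**Figure D3:**
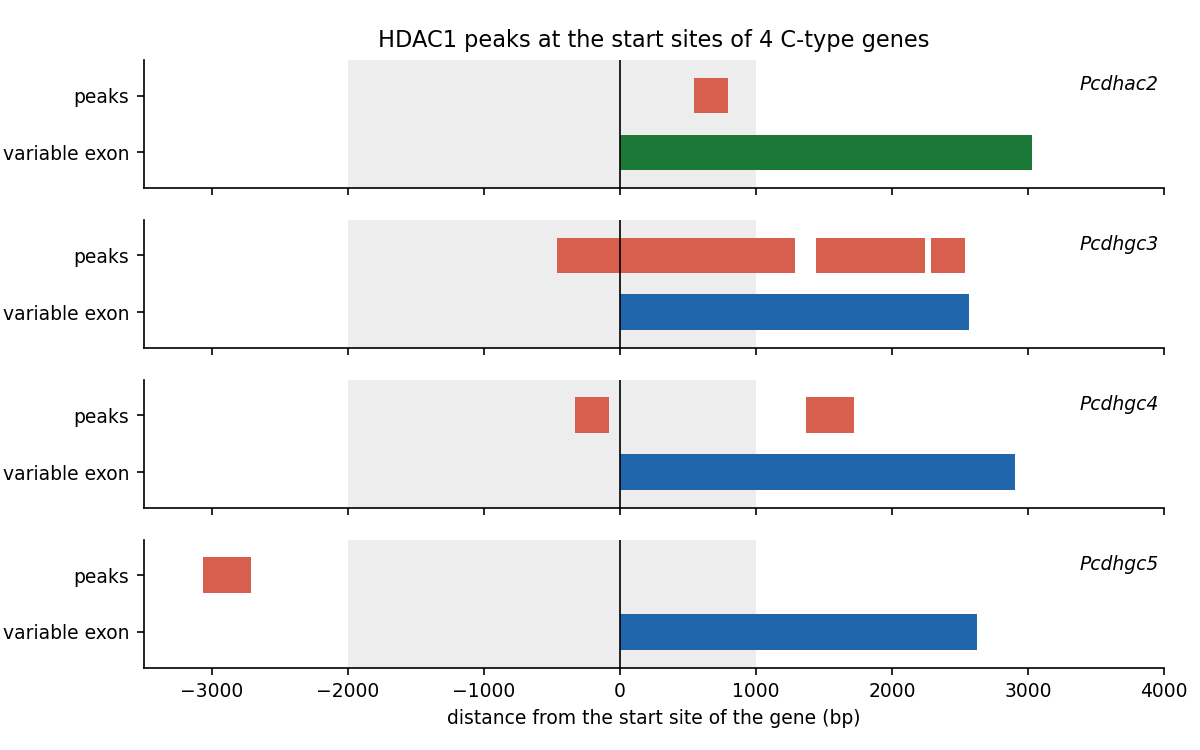
Each panel shows a C-type gene by distance from its TSS (bp, x axis), with the variable exon as the lower bar, HDAC1 peaks as the upper bars and the promoter window in grey. At Pcdhgc3 the peaks cover the TSS and most of the exon, at Pcdhac2 a short peak lies downstream of the TSS, at Pcdhgc4 a short peak lies on each side of it, and at Pcdhgc5 the single peak shown lies upstream of the window.

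Apart from the first 2 peaks at Pcdhgc3, the peaks of the clusters were short and low in the ranking. Over all 7, the median rank was 11572 and the median length 250 bp, compared with 7674 and 450 bp over all 15347 peaks, and with 6264 and 550 bp over the 9904 peaks in promoter windows of protein-coding genes. Of the 7 peaks, 2 were among the first 7673 of the list, both at Pcdhgc3. What the authors' order measures was not stated for this list. Among the 7, the 2 best-ranked peaks were also the longest.

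**Figure D4:**
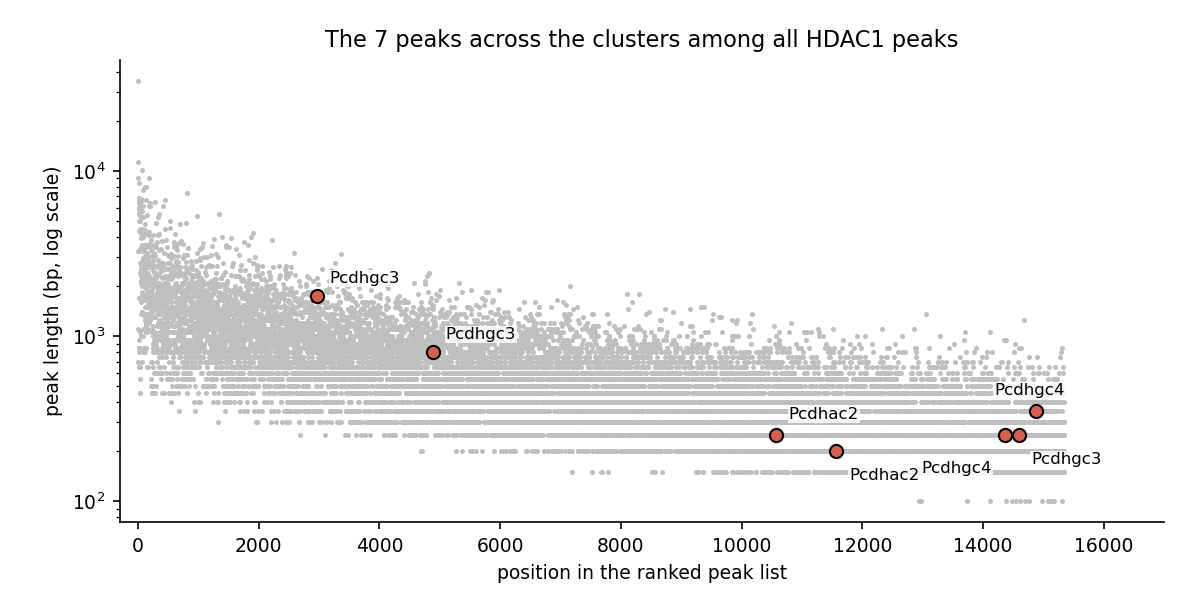
Each grey point is a peak of the list, by its position in the ranking (x axis) and its length (bp, log scale, y axis), and the 7 filled points are those across the clusters, labelled by the gene with the nearest TSS. The peaks ranked 2970 and 4889 at Pcdhgc3 are the only ones of the 7 among the first 7673, and the other 5 are 200 to 350 bp long.

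Gene bodies of Pcdha and Pcdhg run over the neighbouring variable exons to the shared constant exons, so that 1 peak can count for many genes. A peak was found in 34 of 57 bodies (59.6%, interval 46.7 to 71.4%), against 45.0% of all protein-coding genes and 57.3% of those on chromosome 18. All 14 Pcdha bodies and 20 of 21 Pcdhg bodies held a peak, Pcdhgc5 being the exception, and none of the 22 Pcdhb bodies did. The Pcdha bodies each held the same 2 peaks, and the 18 Pcdhg genes that are not C-type each held the same 5. Pcdhgc3 also held 5 and Pcdhgc4 held 1. When each gene was represented by its own variable exon, a peak was found in 3 of 57 (5.26%), again Pcdhac2, Pcdhgc3 and Pcdhgc4, compared with 36.9% for first exons of all protein-coding genes.

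The remaining promoters were far from any peak. The distance from the TSS to the nearest peak had a median of 145.713 kb over the 52 members that are not C-type (range 40.37 to 321.155 kb), compared with 13.608 kb over all protein-coding genes and 78.5485 kb over those without a promoter peak. Of the members without a peak in the window, the nearest to one were Pcdhgc5 (2714 bp), Pcdhga12 (40370 bp) and Pcdhga11 (50219 bp). The farthest were Pcdhb17 (321155 bp), Pcdhb16 (318665 bp) and Pcdhb18 (316485 bp), in the middle of the peak-free region. Pcdhb1 and Pcdhb22, the first and last genes of their cluster, were 105789 and 288079 bp from a peak, and Pcdhga1, the first of Pcdhg, was 144157 bp from one.

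The region between the 2 groups of peaks, from the Pcdha constant exons to Pcdhgc3 (chr18:37159150-37805949), held no peak over 646.8 kb. It contained 42 TSS of protein-coding genes, of which 40 were members, namely all 22 Pcdhb genes and the 18 Pcdhg genes that are not C-type. Of 15326 stretches between neighbouring peaks (median 45.95 kb), it was in place 774 by length and in place 17 by the number of TSS. The stretch upstream of the Pcdhac2 peak (350.1 kb, 17 TSS) was in place 1600 by length and 72 by TSS. The stretch with the most TSS held 237, among them many olfactory receptor genes. Slc25a2 and Taf7, which lie among the protocadherins but are not members, had no promoter peak either.

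Protocadherin genes outside the clusters and genes beside them served as comparisons. Against the 42.0% of all protein-coding genes, 6 of 12 non-clustered protocadherins had a promoter peak (interval 25.4 to 74.6%), namely Pcdh7, Pcdh8, Pcdh10, Pcdh17, Pcdh18 and Pcdh19, and 6 did not, namely Pcdh1, Pcdh9, Pcdh11x, Pcdh12, Pcdh15 and Pcdh20. Their interval did not overlap that of the 57 clustered genes. Pcdh1 had 3 peaks at the 5′ end of the gene, outside the window of the transcript with the longest coding sequence. Of the 29 genes within 500 kb of the clusters, 15 had a promoter peak (51.7%, interval 34.4 to 68.6%, which includes the 42.0%). Those without were Pfdn1, Hbegf, Slc4a9, AC115631.1, Eif4ebp3, Sra1, E230025N22Rik, Tmco6, Dnd1, Fchsd1, Arap3, Pcdh1, Pcdh12 and Gnpda1. The regulators of the clusters were listed as Ctcf, which codes for the insulator protein that binds many protocadherin promoters, the cohesin genes and their partners Rad21, Smc1a, Smc3, Stag1, Stag2, Nipbl, Wapl, Pds5a and Pds5b, and the chromatin and repressor genes Smchd1, Dnmt3b, Setdb1, Wiz, Ehmt1, Ehmt2, Rest and Trim28. All 18 had a promoter peak, against the 42.0% of all genes. Their median ratio of observed to expected CpG, a measure described in the next paragraph, was 0.755, and 93.1% of all genes with a ratio of 0.6 or above had a promoter peak.

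Members with and without a promoter peak differed in median base composition, but all 3 with a peak were C-type. The GC content of the promoter window had a median of 50.1% (range 49.5 to 52.3%, 3 genes) with a peak and 40.9% (range 36.8 to 51.3%, 54 genes) without. These ranges overlapped. By type, the median was 50.1% in the 5 C-type genes and 40.7% in the 52 other members. The 2 C-type genes without a peak had a median of 49.1%. A difference by peak therefore cannot be told apart from a difference by type. Over all protein-coding genes the medians with and without a peak were 52.3% and 46.1%. The median ratio of observed to expected CpG was 0.538 with a peak (range 0.410 to 0.718) and 0.393 without (range 0.114 to 0.670), so the ranges overlapped, and over all genes these medians were 0.579 and 0.232. The difference between members with and without a peak was 0.145, and 0.0739 in the shorter sequence from 250 bp upstream to 50 bp downstream of the TSS. Pcdhgc3 had the highest ratio of all members (0.718), Pcdhac2 had 0.538 and Pcdhgc4 had 0.410. Pcdhac1, with 46.9% GC and a ratio of 0.474, and Pcdhgc5, with 51.3% GC and a ratio of 0.264, were the C-type genes without a peak.

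The median CpG ratio was 0.520 in Pcdha, 0.302 in Pcdhb and 0.422 in Pcdhg, and the median GC content was 39.2%, 40.0% and 44.0%. Among all genes, the share of windows with a peak rose with this ratio. From 0.5 to 0.6 it was 79.6%, and 1 of the 13 members in this range, Pcdhac2, had a peak. From 0.4 to 0.5 it was 53.6%, with 1 of 13 members, Pcdhgc4. At 0.6 and above it was 93.1%, with 1 of 2 members, Pcdhgc3 and not Pcdhga11 (0.670). From 0.3 to 0.4 it was 21.6%, with 0 of 18 members. In the same shorter sequence, 22 members had a ratio of 0.6 or above and 1 of them had a peak in its window, compared with 74.7% of all genes in that range. In the ranges from 0.4 upward, members had smaller shares with a peak than all genes of the same ranges, a difference that was not tested.

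**Figure D5:**
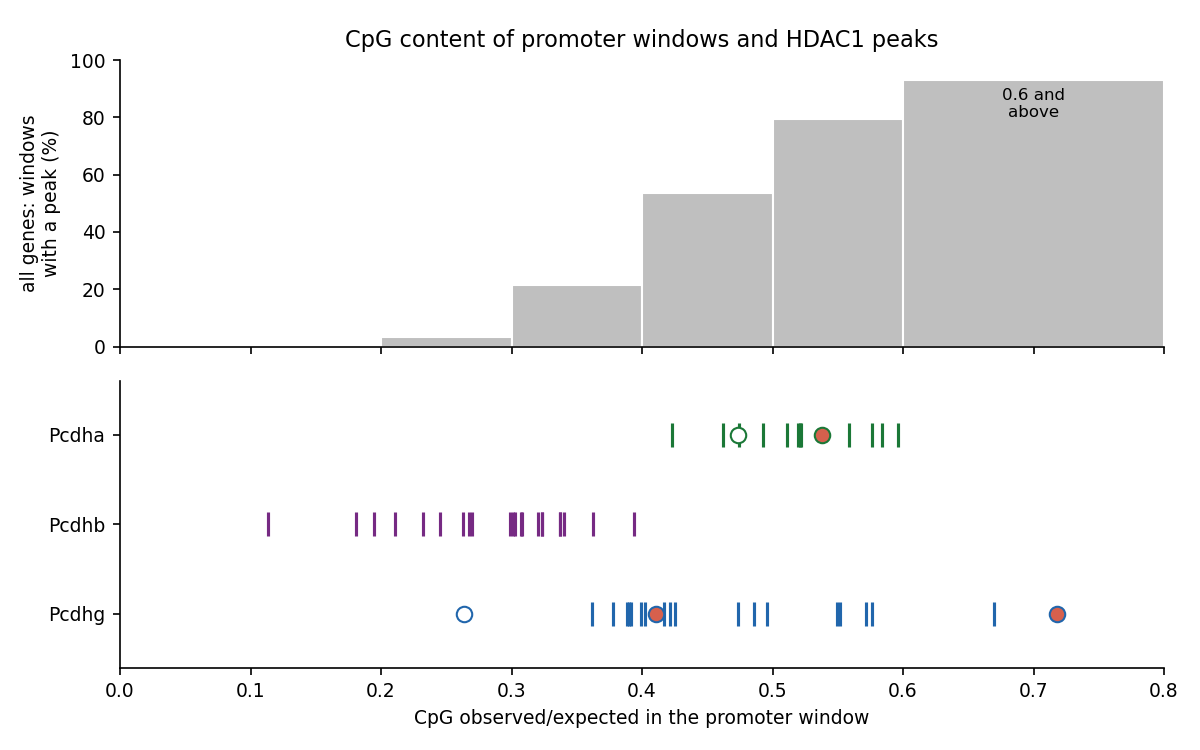
The upper panel gives the share of all promoter windows with an HDAC1 peak (%, y axis) by range of observed to expected CpG (x axis, the last bar being 0.6 and above), and the lower panel the ratio of each member by cluster, with ticks for ordinary members and circles for C-type genes (filled with a promoter peak). Pcdha and Pcdhg members lie mostly where 21.6 to 79.6% of all windows had a peak, and Pcdhb members lie below 0.4.

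Most of the peaks themselves were poorer in GC and CpG than the median peak of the list. Over all peaks the medians were 62.9% GC and a CpG ratio of 0.758, and 5 of the 7 peaks of the clusters were below both. These were the second and the third peak of Pcdhgc3 (54.0% and 61.6% GC, ratios 0.633 and 0.639), the promoter and exon peaks of Pcdhgc4 (42.0% and 53.4% GC, ratios 0.481 and 0.360) and the peak between Pcdha constant exons (45.5% GC, ratio 0.394). The Pcdhac2 promoter peak, with 66% GC and a ratio of 0.845, was above both medians, and the first Pcdhgc3 peak had 57.7% GC and a ratio of 0.825.

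The share of promoter sequence that is repeated elsewhere in the genome was also measured, since the members are related sequences. Of the 32-base words of the 3 kb window, a median of 93.3% occurred once in the genome in the 54 members without a peak (range 77.2 to 100%, the lowest at Pcdhb9), against 99.7 to 100% in the 3 with a peak. The ranges overlapped, and 7 of the 54 members without a peak were at or above the lowest of those with one. The 5 C-type genes, with or without a peak, had 99.5 to 100%. The genes within 500 kb had a median of 98.2%. The regulators, all with a promoter peak, had a median of 97.9% and a lowest value of 59.7%. The part of this property and of base composition in the absence of peaks was not tested.

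Many promoters of the clusters are known for a conserved sequence element with the core CGCT. The 4 letters alone do not identify this element. They occurred in 92.8% of all protein-coding promoters with an HDAC1 peak and in 50.3% of those without. These letters, searched on both strands from 250 bp upstream to 50 bp downstream of the TSS, occurred in 55 of 57 members (96.5%) and in 68.2% of all protein-coding promoters, in 3 of 3 members with a peak and in 52 of 54 without. AGNNGGC, a short part of the CTCF recognition sequence, occurred in the same window in all 5 C-type genes, in 12 of 52 other members (23.1%) and in 63.2% of all promoters. Both C-type genes without a peak, Pcdhac1 and Pcdhgc5, held it too. The median GC content of the searched sequence was 54.7% in C-type genes, 39.7% in other members and 55.7% in all promoters. The part of GC content in these shares was not tested. Such short matches are a description of the sequence, and they show neither the conserved element nor a binding site.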

How the data were processed

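The data were 1 list of HDAC1 peaks from 4 ChIP samples and 3 inputs. Per the submitters' processing notes, reads were aligned with Bowtie2 2.2.5 to mm10, and the study's methods name CisGenome as the peak caller. The deposited list analysed here gives, for each peak, its chromosome, start and end, in the order set by the authors. Other values of the peaks were not used here, the depth behind each peak is unknown, and intervals cover counting error only. Peak lengths were all multiples of 50 bp. Starts and ends were read as 1-based and inclusive. No peak passed a chromosome end of GRCm38.

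Genes were taken from GENCODE M21, with 1 TSS per gene, that of the protein-coding transcript with the longest coding sequence. In 4 members (Pcdha1, Pcdha5, Pcdha9 and Pcdhb8) this TSS was the start codon, so the true start may lie upstream. M21 gives the symbol Pcdha11 to 2 genes, both counted, and Pcdhgb8, a polymorphic pseudogene there, was left out, as were 3 read-through models named Gm that span the clusters (no promoter peak). Overlaps were computed in Python 3.11.15 with numpy 2.4.6 and pandas 2.3.3, and were tested on simulated data, with 2000 of 2000 regions recovered. Sequence measures were taken from the GRCm38 reference.

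The members and lists were chosen with earlier results of these data known. The C-type split, motif letters, word uniqueness and peak-free stretches were settled after the peaks had been seen. Genes named were all members with a promoter peak, the C-type genes, the first and last gene of each cluster, and the 3 members without a promoter peak that were nearest to and the 3 farthest from a peak. For each comparison list the smaller of the sets with and without a peak was named. Pcdhb9, the lowest in word uniqueness, Pcdhga11 in the CpG comparison, Ctcf, Slc25a2, Taf7, BC037039 and the named non-clustered genes with values were added after their values were seen. No promoter or protein sequence is printed here. Alternatives changed the overlap, rank, window, TSS and coordinate reading.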

Additional observations from a re-analysis of the deposited data

How the results depend on the processing

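Of 64 values recomputed under other settings, 55 stayed within their intervals or spread, 9 moved beyond them and 0 reversed. Only the differences in GC content and CpG ratio could reverse, since a share has no sign, so for the shares this 0 carries no information. In every setting tried for promoters, the genes with a peak were C-type. The windows could not have given another outcome. They reached at most 5 kb, and no other member had a peak nearer than 40.37 kb to its TSS. This is therefore no support for the C-type split. With only the first 7673 peaks of the ranked list, the share of promoters with a peak fell to 1.75% over all members (Pcdhgc3 alone) and to 0% in Pcdha, against 28.5% of all protein-coding genes. That of gene bodies fell to 33.3% over all members and to 0% in Pcdha. With a window of 1 kb upstream to 500 bp downstream, Pcdha had 0% and Pcdhgc3 and Pcdhgc4 kept their peaks (3.51% of members, against 40.6% of all genes). With 5 kb on both sides Pcdhgc5 was added (7.02%, against 44.7%). With the variable exon in place of the gene body, the shares were 5.26% over all members, 7.14% in Pcdha and 9.52% in Pcdhg. With the short sequence around the TSS, the difference in median GC content between members with and without a peak was 12.7 percentage points in place of 9.15, and that in CpG ratio was 0.0739 in place of 0.145. The start of the nearest RefSeq gene as TSS, chosen after seeing the data, gave the same 3 genes. No paired analysis was possible because the list analysed here has no values per sample, and for the same reason no replicate could be left out. The unknown depth limits every absence: a promoter without a peak may be bound below the authors' threshold.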
